A study of Homo sapiens with 36 samples.

Results

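Heavy polysomes were set against 80S monosomes in human embryonic stem cells that lack RBPMS. The cells belonged to the established line HUES6, and RBPMS knockout cultures are called KO below, with unmodified cultures as WT. The heavy polysome fraction is named Polysome2 in the labels. The comparison used 6 libraries of the 36 in the series, namely Polysome2 and 80S from each of 3 KO cultures, and the fractions were paired by culture number. The same 2 fractions of 3 WT cultures, 6 further libraries, were set beside KO, and disome and Polysome1 libraries were read for levels along the gradient. FTDA, a defined medium that keeps stem cells pluripotent, was used for all cultures, which received cycloheximide, which stalls ribosomes on mRNA, at 100 ng/ml for 5 min before lysis. Each culture number had an unfractionated Input library and libraries of the 40S, 80S, disome, Polysome1 and Polysome2 fractions. Nothing in the labels says whether the KO cultures came from separate clones or were grown on separate days. The p-values therefore rest on how far the paired differences spread between these cultures, and that spread may be technical.

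RBPMS belongs to a family of RNA-binding proteins that bind mRNAs through an RNA recognition motif. In a polysome gradient, an mRNA that carries a lone ribosome sediments with the 80S peak, and an mRNA that carries many ribosomes sediments in the heavy polysomes. mRNAs with long coding sequences or frequent initiation tend to lie toward the heavy end, while mRNAs with short coding sequences, repressed mRNAs and RNAs that are hardly translated tend to lie toward the light end. A comparison of heavy polysomes with 80S monosomes therefore asks how the RNAs bound to many ribosomes differ from those bound to few. Equal RNA amounts entered each poly(A)-selected library, so the values describe the make-up of a fraction and not how much RNA it held. Fewer cells of a type and less RNA per cell cannot be told apart in such bulk samples.

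Of 223367 transcripts in the table, 6570 (2.94%) reached 10 TPM in 3 or more of the 6 KO libraries, and these were tested. TPM is an abundance that is divided by transcript length and scaled to a fixed total per library. The third-highest value, which decides whether a transcript is kept, was 10.002 TPM just inside the limit and 9.999 TPM just outside it. A further 472 transcripts had a third-highest value between 9 and 10 TPM. Among those tested, 5548 were at 1 TPM or more in all 6 libraries, 2749 were at 10 TPM or more in all 6, and 658 were listed at 0 in at least 1. The limit was met in libraries of both fractions by 6236. It was met in all 3 Polysome2 libraries and no 80S library by 323, and in all 3 80S libraries and no Polysome2 library by 11. A transcript that enters through 1 fraction only is high there by construction, and such transcripts made up 198 of those called higher and 3 of those called lower below.

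Transcripts carry Ensembl IDs, and neither the table nor the gene table used here pairs them with gene names. The level of RBPMS, the markers of pluripotent and other cell types and 23 prepared gene lists were therefore not analysed here, and neither the knockout nor the cell type was checked against its defining genes. Only IDs can be given, so 2 transcripts that rose and 2 that fell are named. TPM is scaled to a fixed total, so read numbers cannot be recovered from it. A value of 0 is an estimate listed as 0. Sequencing depth is therefore unknown.

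KO culture 3 stood apart from KO cultures 1 and 2 before any fractions were compared. Across the 6570 transcripts, which are not independent and share a library total, Pearson's r of log2(TPM + 1) between the Polysome2 libraries was 0.811 for cultures 1 and 2, 0.291 for cultures 1 and 3 and 0.502 for cultures 2 and 3. In 80S the same pairs gave 0.805, 0.325 and 0.530. The 2 fractions of the same culture were closer, at 0.830, 0.824 and 0.847 in cultures 1, 2 and 3. In every KO culture the 2 fractions thus resembled each other more than the same fraction of another KO culture. The gap was narrow between cultures 1 and 2 and wide for culture 3.

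Culture 3 lay close to WT in level, and the other KO cultures did not. Against the mean of the WT Polysome2 libraries, KO Polysome2 had an r of 0.230, 0.425 and 0.927 in cultures 1, 2 and 3. Against the WT 80S mean, KO 80S had 0.371, 0.558 and 0.925 in the same order. The tested transcripts were chosen on KO libraries alone, 4 of them from cultures 1 and 2. Over 11404 transcripts chosen on both genotypes the order held, at 0.150, 0.251 and 0.893 in Polysome2 and 0.399, 0.506 and 0.885 in 80S.

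Some transcripts were found in both fractions of some KO cultures and in neither fraction of others. Of those tested, 192 (2.92%) were at 10 TPM or more in all 4 libraries of cultures 1 and 2 and below 1 TPM in both libraries of culture 3. Their medians were 47.2 and 30.2 TPM in Polysome2 and 39.8 and 36.2 TPM in 80S of cultures 1 and 2, and they were listed at a median of 0 in culture 3. None of the 192 reached 1 TPM in all 6 WT libraries of these fractions, and 67 were below 1 TPM in all 6. The reverse group, at 10 TPM or more in both libraries of culture 3 and below 1 TPM in cultures 1 and 2, held 524 transcripts, all outside the tested set because 2 libraries do not meet its limit. Of these 524, 382 (72.9%) reached 1 TPM in all 6 WT libraries and 0 were below 1 TPM in all of them. The shares of all tested transcripts at these WT levels were not counted, so the WT counts of both groups are descriptions. Their TPM summed to 3.13% of Polysome2 and 2.53% of 80S in culture 3. None of the 192 passed the limma test between fractions described below, and the 524 were not tested. Values below 1 TPM keep the culture 3 difference of the 192 under 1 in size on the log2(TPM + 1) scale. Their choice thus worked against a call, and the lack of calls does not show equal fractions.

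Polysome2 held more transcripts at 1 TPM than 80S in each KO culture. At 1 TPM or more there were 21548, 20594 and 30940 transcripts in KO Polysome2 of cultures 1, 2 and 3, against 18407, 18851 and 27832 in KO 80S. The gain was 2664 ± 798 transcripts (SD, n = 3) and was seen in 3 of 3 cultures, with an exact sign permutation p of 0.25 (two-sided), the smallest that 3 pairs allow. Without culture 3 the mean gain was 2442. WT cultures 1, 2 and 3 went the same way, with 29061, 27558 and 30336 transcripts in Polysome2, against 27732, 26217 and 24917 in 80S. The part of sequencing depth in these counts was not tested. At 0.1 TPM or more, culture 2 had fewer transcripts in Polysome2, 40305 against 40816 in 80S. The share of TPM in the 10 most abundant transcripts was 17.1%, 13.6% and 5.72% in KO Polysome2, against 18.1%, 13.3% and 11.2% in KO 80S (exact sign permutation p = 0.5, two-sided). Culture 2 moved the other way in this share, and culture 3 had the largest gap of the 3. The mean difference was -2.03 percentage points, and -0.32 without culture 3.

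The spike-in total differed in direction between the KO cultures. RNAs of the External RNA Controls Consortium (ERCC) set summed to 579, 498 and 47.8 TPM in KO Polysome2 of cultures 1, 2 and 3, against 413, 211 and 107 TPM in KO 80S. The ratio of Polysome2 over 80S was 1.40 and 2.36 in cultures 1 and 2, and 0.447 in culture 3. In WT the totals were 9.41, 8.50 and 2.55 TPM in Polysome2, against 36.5, 31.9 and 18.5 TPM in 80S. All WT cultures were thus lower in Polysome2, as was KO culture 3, and KO cultures 1 and 2 were higher. The part of spike-in dose or endogenous RNA amount in the results below was not tested.

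In KO cells, 724 transcripts were higher in Polysome2 than in 80S (11% of the 6570 tested) and 91 were lower (1.39%), 12.4% together, by limma on paired log2(TPM + 1) values with Benjamini-Hochberg adjusted p under 0.05. The median log2 difference was 1.81 among those called higher, a 3.52-fold median, and -1.76 among those called lower. Over all tested transcripts it was 0.43, so a typical transcript was already above 0 in Polysome2. Calls were past 1.19 in size among the higher and past -1.23 among the lower, and the largest differences were 4.33 and -5.35. Most tested transcripts, 5755, did not pass the test, and their median difference was 0.33. At least 1 of the 6 libraries was listed at 0 for 36 of the 724 and 22 of the 91, against 658 of all 6570. All 6 were at 1 TPM or more for 634 of the 724 and 54 of the 91. With identical transcripts counted once, 612 were higher and 68 lower.

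The excess of higher over lower calls depended on how libraries were scaled. After quantile normalization, which set the median difference of all tested transcripts at -0.02, 98 were higher and 19 lower. After median-of-ratios scaling, with a median of -0.08, 82 were higher and 36 lower, so lower calls made up 30.5% of calls against 11.2% without it. After scaling to the ERCC total, 0 were higher and 9 lower (limma, 401 at an unadjusted p under 0.05). Relative to a median near 0 the 724 kept a median log2 difference of 1.36 with quantile normalization and of 1.29 with median-of-ratios scaling. The 91 had -2.04 and -2.15 in that order.

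**Figure D1:**
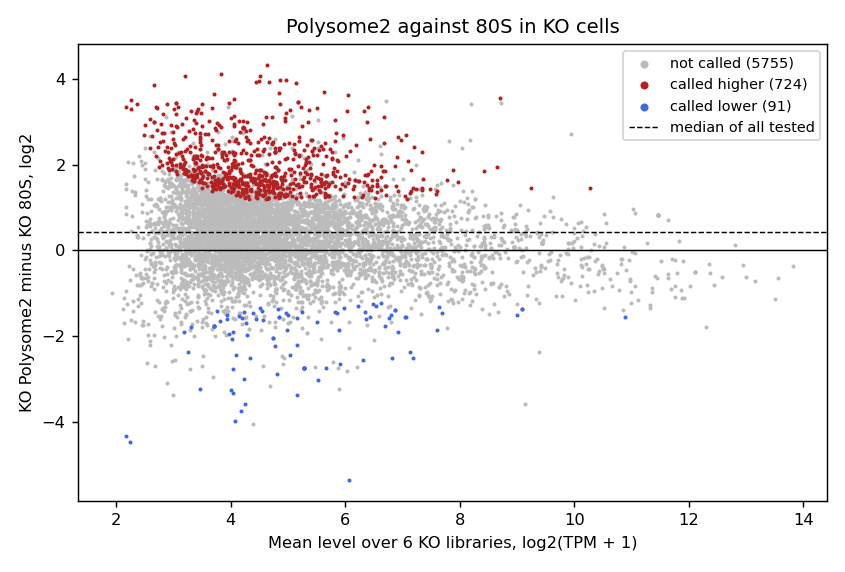
Log2 difference of KO Polysome2 minus KO 80S (mean of 3 cultures, y axis) against mean log2(TPM + 1) over the 6 libraries (x axis), with 1 point per tested transcript. Red points are the 724 called higher, blue points the 91 called lower, and the dashed line is the median of all tested transcripts at 0.43, above the line at 0.

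Higher calls were found at every level of abundance, and lower calls lay mostly among abundant transcripts. Tested transcripts were divided into 5 equal bins of 1314 by their mean TPM over the 6 libraries. The number called higher was 129, 137, 190, 169 and 99 from the lowest bin to the highest. The number called lower was 3, 6, 21, 20 and 41 in the same order. In the highest bin, above 87.8 TPM, the median log2 difference was 0.12, against 0.55 in the lowest bin, below 14.6 TPM. The mean level of the transcripts called lower had a median of 75.3 TPM, against 30.0 TPM for those called higher.

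ENST00000490936.5 and ENST00000461111.1 were the 2 rising transcripts with the largest difference in their least responsive culture. Both were above 10 TPM in all 3 Polysome2 libraries and in no 80S library, so they entered the tested set through the fraction in which they are high, and their values and p are a description of that choice. ENST00000490936.5 was at 117, 107 and 116 TPM in KO Polysome2 of cultures 1, 2 and 3, against 4.35, 7.17 and 7.89 TPM in KO 80S. The 3 Polysome2 values lay close together and far above the 3 values of 80S, and culture 3 behaved like the others. The mean was 113 ± 5.88 TPM in Polysome2 and 6.47 ± 1.87 TPM in 80S (SD, n = 3 each), and the log2 difference was 3.97 (SE 0.34, limma adjusted p = 0.00628). ENST00000461111.1 was at 138, 71.7 and 78.5 TPM in KO Polysome2, against 3.68, 4.87 and 5.26 TPM in KO 80S. Again the fractions did not overlap, and culture 1 had both the highest Polysome2 value and the lowest 80S value. Its log2 difference was 4.06 (SE 0.38, limma adjusted p = 0.00628). Both calls ended without culture 1, where the log2 differences were 3.72 and 3.65 (limma adjusted p = 0.0715 for each).

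ENST00000569500.5 and ENST00000456958.7 were the falling transcripts chosen in the same way, and in both the cultures differed in level by more than the fractions did. ENST00000569500.5 was at 31.7, 5.71 and 1.75 TPM in KO Polysome2 of cultures 1, 2 and 3, against 283, 29.8 and 11.8 TPM in KO 80S. Culture 1 was high in both fractions, so its Polysome2 value lay above the 80S values of cultures 2 and 3, and the groups overlapped although each culture fell. The log2 difference was -2.51 (SE 0.35, limma adjusted p = 0.00989), and the call ended without culture 1 (limma adjusted p = 0.0919). ENST00000456958.7 was at 180.1, 41.8 and 3.56 TPM in KO Polysome2, against 791, 355 and 24.8 TPM in KO 80S. Its values in culture 3 were the lowest of both fractions, and its log2 difference was -2.13, -3.06 and -2.50 in cultures 1, 2 and 3, so the fall in culture 3 lay between those of the other cultures. The log2 difference was -2.56 (SE 0.34, limma adjusted p = 0.00916), and the call ended without culture 1 (limma adjusted p = 0.0715) and without culture 2 (limma adjusted p = 0.0541).

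**Figure D2:**
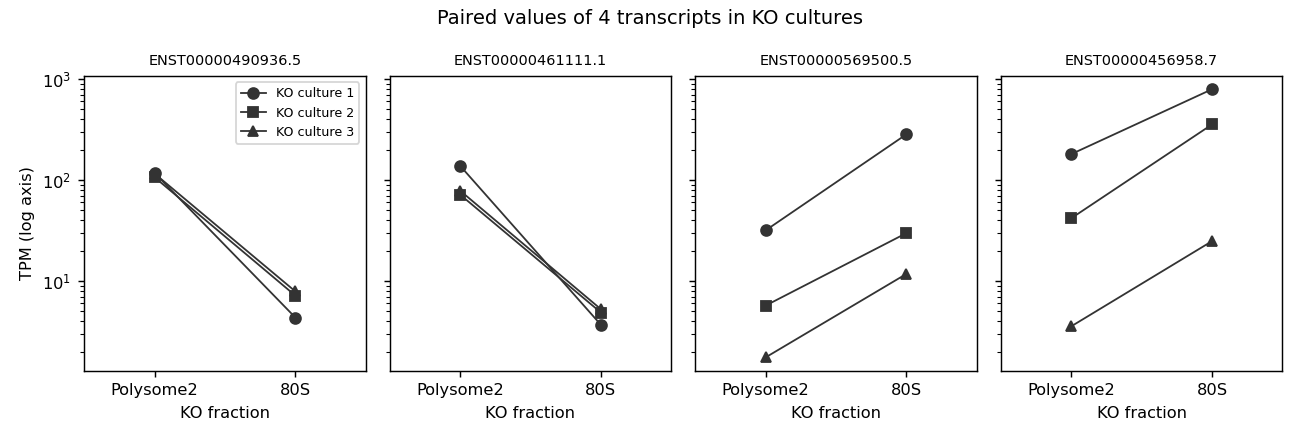
TPM (log axis) of the 4 named transcripts in KO Polysome2 and KO 80S (x axis), with a marker shape and a line for each of 3 KO cultures. The 2 transcripts on the left were higher in Polysome2 in all 3 cultures, and the 2 on the right were lower in all 3, with culture 1 highest and culture 3 lowest in level.

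The same split between rising and falling transcripts held for the medians of the called groups. Transcripts called higher had like median levels in all KO cultures, with a median of 42.5, 36.2 and 41.9 TPM in Polysome2 of cultures 1, 2 and 3, against 9.94, 11 and 9.75 TPM in 80S. Transcripts called lower had a median of 53.9, 23.2 and 2.26 TPM in Polysome2, against 168, 112 and 15.8 TPM in 80S, so culture 3 was the lowest by far in both fractions. Averaged over both fractions, culture 3 lay below the mean of cultures 1 and 2 by at least 1 on the log2 scale for 73 of the 91 (80.2%), against 28.3% of all tested transcripts. For the 724 that share was 21.1%. Culture 3 lay above that mean by at least 1 for 20.2% of the 724, 2.20% of the 91 and 27.2% of all tested. Like medians of the 724 thus did not mean like levels of each transcript. Of the 724, the 3 Polysome2 libraries lay above all 3 libraries of 80S for 536, and of the 91 they lay below all 3 for 20. Over all tested transcripts these 2 arrangements were found in 16.8% and 2.19%. The groups were chosen on these libraries, so the counts describe them.

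By their choice on these libraries, the 724 took a larger part of Polysome2 than of 80S in every KO culture, and the 91 a smaller part. The sums are therefore a description of size. Their TPM summed to 6.71%, 4.98% and 6.36% of KO Polysome2 in cultures 1, 2 and 3, against 1.47%, 1.56% and 1.87% of KO 80S. The 91 summed to 1.49%, 0.708% and 0.255% of KO Polysome2, against 5.83%, 2.50% and 0.709% of KO 80S. The remaining tested transcripts summed to 84.3%, 88.2% and 70.2% of KO Polysome2, against 86.9%, 90.7% and 81.9% of KO 80S. In culture 3, more of each library lay outside the tested transcripts than in cultures 1 and 2.

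The libraries between the 2 ends of the gradient, which were not used in the choice, were read next. In KO cultures 2 and 3 the median of the 724 was 11 and 9.75 TPM in 80S, 18.1 and 15.2 TPM in disome, 32.4 and 26.1 TPM in Polysome1, and 36.2 and 41.9 TPM in Polysome2. The 80S and Polysome2 libraries chose the 724. Over all tested transcripts the median was 21.6 and 19.7 TPM in 80S, 27.7 and 23.6 TPM in disome, 30.6 and 30.2 TPM in Polysome1, and 26.6 and 31.4 TPM in Polysome2 of cultures 2 and 3, so these also climbed at every step in culture 3 and as far as Polysome1 in culture 2. Culture 1 had 9.94 TPM in 80S, 3.71 TPM in disome, 42.1 TPM in Polysome1 and 42.5 TPM in Polysome2. Its disome library stood apart for all tested transcripts as well, with a median of 4.13 TPM. Polysome1 was above disome in both culture 2 and culture 3 for 681 of the 724 (94.1%), against 47.3% of all tested transcripts. For the 91, Polysome1 was below disome in both cultures for 60 (65.9%), against 15.3% of all tested transcripts. With culture 1 included, Polysome1 was above disome in all 3 cultures for 92.7% of the 724 and 45.8% of all tested, and below it for 3.30% of the 91 and 0.472% of all tested.

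**Figure D3:**
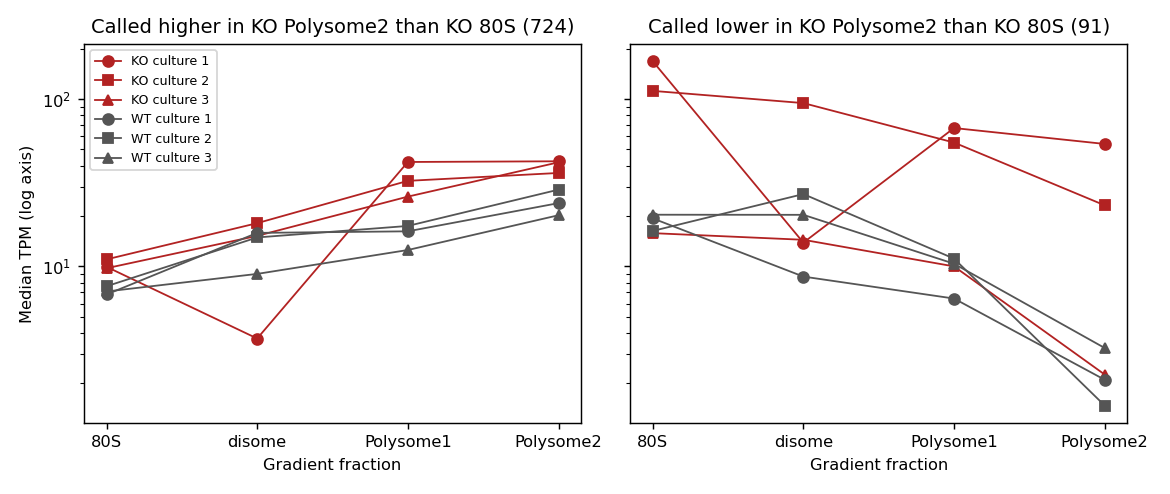
Median TPM (log axis) of the 724 transcripts called higher in KO Polysome2 than in KO 80S (left) and of the 91 called lower (right), along the gradient from 80S to Polysome2. Red lines are the 3 KO cultures and grey lines the 3 WT cultures. On the left all lines end higher than they start, from 6.79 to 11 TPM in 80S and from 20.2 to 42.5 TPM in Polysome2, and the drop at disome is KO culture 1.

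How far the KO cultures gave the same direction was counted for every tested transcript. The Polysome2 minus 80S difference was above 0 in all 3 cultures for 2853 transcripts (43.4%) and below 0 in all 3 for 768 (11.7%). By construction, the 2853 include the 323 that met the limit in Polysome2 alone, and the 768 include the 11 that met it in 80S alone. It was at least 1 on the log2 scale in all 3 for 638 and at most -1 in all 3 for 72. The median difference over tested transcripts was 0.52, 0.23 and 0.56 in cultures 1, 2 and 3. Pearson's r between the differences of 2 cultures, over 6570 transcripts that share libraries, was 0.489 for cultures 1 and 2, 0.350 for 1 and 3 and 0.472 for 2 and 3.

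Culture 3 opposed cultures 1 and 2 in few transcripts once small differences were set aside. With all 3 differences at least 1 in size, 13 transcripts were lower in Polysome2 in culture 3 and higher in cultures 1 and 2, and 9 showed the reverse, 22 in all (0.335% of those tested). Culture 1 opposed the other cultures in 18 and culture 2 in 16, so the number for culture 3 was of the same order. With differences of any size, the numbers were 1020 for culture 3, 940 for culture 1 and 775 for culture 2. The 13 had medians of 121, 68.9 and 0.261 TPM in KO Polysome2 of cultures 1, 2 and 3, against 27.6, 20.7 and 25.0 TPM in KO 80S. The 9 had medians of 22.0, 12.1 and 12.3 TPM in KO Polysome2, against 84.9, 73.0 and 2.70 TPM in KO 80S. In 9 of the 13 and 6 of the 9 at least 1 library was below 1 TPM, and none of the 22 passed the limma test. In WT, 7 of the 13 were lower in Polysome2 in all 3 cultures and 1 was higher in all 3, while of the 9, 3 were higher in all 3 and 1 was lower. Over all tested transcripts, 24.9% were lower in Polysome2 in all 3 WT cultures and 48.2% were higher, so these few counts are descriptions.

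Transcripts that moved alike in cultures 1 and 2 were then read in culture 3. Of 794 transcripts at least 1 higher in both cultures 1 and 2, culture 3 was also at least 1 higher in 638 and above 0 in 731 (92.1%). Of 174 at least 1 lower in both, culture 3 was also at least 1 lower in 72 and below 0 in 126 (72.4%), and it had no difference in 20. Over all tested transcripts, culture 3 was above 0 in 66.7% and at least 1 higher in 34.6%. It was below 0 in 30.8% and at least 1 lower in 11.1%. The 323 tested transcripts that met the limit in Polysome2 alone are above 0 in culture 3 by construction. The 11 that met it in 80S alone are below 0 there, so the counts of agreement are descriptions. With culture 3 left out of the test, 458 transcripts were higher and 154 lower. Of those 392 and 64 were among the 724 and the 91, whose median log2 differences without culture 3 were 1.75 and -1.87.

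**Figure D4:**
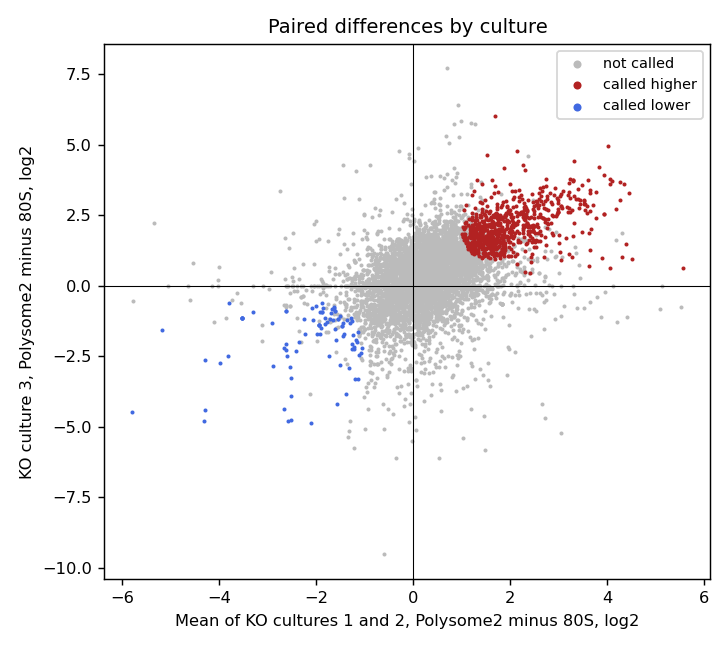
Polysome2 minus 80S log2 difference in KO culture 3 (y axis) against the mean of KO cultures 1 and 2 (x axis), with 1 point per tested transcript. Red points, called higher, lie in the upper right and blue points, called lower, in the lower left, while points in the upper left and lower right are transcripts on which culture 3 differed in sign from that mean.

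The number of calls changed with the pairing and with the cultures left in, and the cause of these changes was not tested. Without culture 1, limma called 0 transcripts, with 1661 at an unadjusted p under 0.05 and a smallest adjusted p of 0.0715. The median log2 differences of the 724 and the 91 were then 1.76 and -1.84. Without culture 2, limma called 90 higher and 8 lower, with 1571 at an unadjusted p under 0.05. With libraries taken as unpaired, limma called 0 transcripts, with 718 at an unadjusted p under 0.05. With a pseudocount of 0.1 TPM in place of 1 TPM, 229 were higher and 17 lower.

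The WT libraries, which had no part in the calls, were read for the transcripts called in KO. KO culture 3 had a part in the calls and lay close to WT, with an r of 0.672 between its differences and the WT mean. The 198 of the 724 that entered through Polysome2 alone were not read apart. The counts below are therefore descriptions. Of the 724, 596 (82.3%) were higher in Polysome2 than in 80S in all 3 WT cultures, against 48.2% of all tested transcripts, and 9 were lower in all 3. Of the 91, 73 (80.2%) were lower in all 3 WT cultures, against 24.9% of all tested, and 0 were higher in all 3. The median log2 difference of the 724 was 1.66, 1.86 and 1.41 in WT cultures 1, 2 and 3, against 0.60, 0.67 and 0.36 over all tested. That of the 91 was -2.32, -2.11 and -1.91.

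The 4 named transcripts moved the same way in WT. ENST00000490936.5 was at 51.4, 66.3 and 31.8 TPM in WT Polysome2, against 8.36, 15.5 and 13.1 TPM in WT 80S. Its KO difference was the larger by a log2 value of 2.06 (SE 0.46). ENST00000461111.1 was at 25.4, 36.3 and 15.7 TPM in WT Polysome2, against 4.22, 7.22 and 5.81 TPM in WT 80S, and its KO difference was the larger by 2.12 (SE 0.51). These transcripts were chosen for large differences in the same KO libraries, which favours a KO difference above that of WT, so both values are descriptions with no test. For both, the WT Polysome2 values were all below those of KO. The 80S values of the genotypes overlapped for ENST00000461111.1, and for ENST00000490936.5 those of WT were all above those of KO. ENST00000569500.5 was listed at 0, 0 and 0.530 TPM in WT Polysome2, against 16.9, 17.0 and 13.95 TPM in WT 80S. ENST00000456958.7 was listed at 0, 3.74 and 2.03 TPM in WT Polysome2, against 48.1, 21.3 and 41.4 TPM in WT 80S. Their KO minus WT differences, open to the same choice, were 1.36 (SE 0.48) and 1.32 (SE 0.78), with the deeper fall in WT.

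The KO cultures were compared with each other in transcripts with a large difference in WT. Transcripts were grouped by WT alone, so that KO libraries had no part in the choice, while the WT values given for these groups are those that chose them. A smaller value in KO than in WT is favoured by that choice, and over all tested transcripts the median difference was 0.43 in KO and 0.52 in WT. Of 1699 transcripts at least 1 higher in Polysome2 in all 3 WT cultures, the median difference in KO was 0.81, 0.66 and 1.28 in cultures 1, 2 and 3, against 1.87, 2.08 and 1.82 in the WT cultures. KO cultures 1, 2 and 3 were at least 1 higher in 42.5%, 32.7% and 68.6% of them, where the shares over all tested were 31.0%, 19.7% and 34.6%. Of 851 transcripts at least 1 lower in all 3 WT cultures, the median in KO was 0.11, -0.28 and -1.04, against -2.33, -2.32 and -2.46 in the WT cultures. KO cultures 1, 2 and 3 were at least 1 lower in 11.99%, 16.5% and 52.5% of them, against 6.12%, 7.32% and 11.1% of all tested. Among the KO cultures, culture 3 had the largest difference in the WT direction in both groups. Across tested transcripts, r between a KO culture's differences and the WT mean difference was 0.264, 0.338 and 0.672 in cultures 1, 2 and 3, and between pairs of WT cultures it was 0.716 to 0.825.

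The KO minus WT difference of this contrast was tested as an interaction in the 12 libraries of both genotypes. Of 11404 transcripts that reached 10 TPM in 3 or more of the 12, 812 had a higher difference in KO (7.12%) and 956 a lower one (8.38%), 15.5% together, by limma with adjusted p under 0.05. After scaling to the ERCC total, 184 were higher and 6911 lower, so the balance of directions depended on scaling. Among the 6570 transcripts tested in KO, 556 were higher (8.46%) and 393 lower (5.98%). Both groups were chosen on these 12 libraries, so their values in KO and WT are descriptions. The 556 had a median KO difference of 0.06, against -2.47 in WT. Of them, 508 were below 0 in all 3 WT cultures, where the share over all tested in KO was 24.9%. Their KO medians were 0.53, 0.08 and -0.52 in cultures 1, 2 and 3. The 393 had a median KO difference of 0.36, against 2.27 in WT. Of them, 390 were above 0 in all 3 WT cultures, against 48.2% of all tested in KO. Their KO medians were 0.18, 0.00 and 0.87 in cultures 1, 2 and 3. Opposite signs in all cultures were found for 89 of the 556, higher in KO Polysome2 and lower in WT Polysome2, and for 15 of the 393 the other way round. The share of such signs over all tested transcripts was not counted.

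Levels in both fractions entered these interactions, and the libraries read here are those that chose the groups, so the medians are descriptions. The 556 had medians of 41.6, 42.3 and 23.0 TPM in KO Polysome2 and 25.3, 31.6 and 29.1 TPM in KO 80S, against 8.47, 7.83 and 9.20 TPM in WT Polysome2 and 41.5, 37.3 and 56.5 TPM in WT 80S. By these medians the genotypes lay further apart in Polysome2 than in 80S. The 393 had medians of 24.9, 30.5 and 95.2 TPM in KO Polysome2 and 20.8, 31.6 and 51.1 TPM in KO 80S, against 115, 120.3 and 93.0 TPM in WT Polysome2 and 22.5, 19.8 and 17.8 TPM in WT 80S. KO culture 3 lay within the WT range in Polysome2 for this group, and KO cultures 1 and 2 lay below it. Without KO culture 3 the interaction was called for 2828 transcripts, without KO culture 1 for 20 and without KO culture 2 for 6. Without WT cultures 1, 2 and 3 it was called for 51, 182 and 62.

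**Figure D5:**
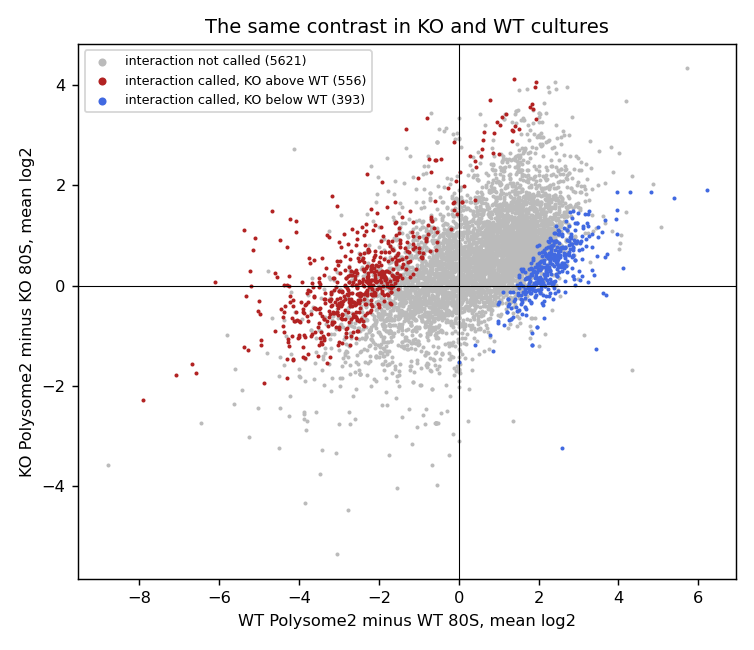
Mean log2 difference of Polysome2 minus 80S in KO (y axis) against WT (x axis), with 1 point per transcript tested in KO. Red points are the 556 whose difference was higher in KO and blue points the 393 whose difference was lower, both chosen on these values. The groups lie near 0 on the KO axis, at medians of 0.06 and 0.36, and away from 0 on the WT axis, at -2.47 and 2.27.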

How the data were processed

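The deposited table held TPM for 36 libraries, made by the authors. Per the submitters' processing notes the tools were kallisto and sleuth and the build hg19. Versions and the annotation release are not given in the sources used here. TPM is scaled per library and keeps no depth, and estimates can be split between transcripts that share sequence: 451 of the 6570 tested had values identical to another's in all 6 libraries. No column was left unused. The gene table (59792 genes) held 0 Ensembl IDs, so 0 transcripts were named, and the planned gene lists, gene sums and further named transcripts were left out. Samples were grouped by title, whose replicate number was taken as the culture and fitted as a block. The labels do not say what the number stands for. Deviations from the group mean correlated between fractions at 0.775, 0.625 and 0.860 in cultures 1, 2 and 3. Unmatched numbers 1 and 2 also correlated, at 0.372 and 0.287, and culture 3 with another culture gave -0.800 to -0.545. Deviations from a group mean sum to 0, and culture 3 stood apart, so the matched values alone do not establish the pairing of cultures 1 and 2.

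Values were taken as log2(TPM + 1) and fitted with limma 3.58.1 in R 4.3.3 with a variance trend, on the 6 libraries, with Benjamini-Hochberg adjustment over all 6570 and a threshold of 0.05. The interaction was fitted on 12 libraries with 6 cultures as blocks. On this scale the changes of transcripts at low TPM are understated. Named transcripts were the 2 higher and 2 lower calls at 1 TPM or more in all 6 libraries with the largest least difference over the 3 cultures, of 634 and 54 candidates. Other tables were made with Python 3.11.15 and pandas 2.3.3. Members, rules and lists were chosen with earlier results of these data known. Alternatives covered the pseudocount, the filter, scaling, the block, left-out cultures and the libraries sharing the spread.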

Additional observations from a re-analysis of the deposited data

Results flagged for a closer look

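The KO and WT contrasts of Polysome2 against 80S differed by the interaction test for 1768 transcripts of 11404 tested. The KO minus WT difference was 2.06 on the log2 scale for ENST00000490936.5 and 2.12 for ENST00000461111.1. Both were chosen for large differences in the same KO libraries, which favours a KO difference above that of WT, so these are values with no test. Dixon's rule for outlying samples was not applied, since it does not cover groups of 3.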

How the results depend on the processing

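The number of transcripts called between KO Polysome2 and KO 80S, 815, stayed within 1.5 times in 8 of 19 alternatives. It was 246 with a pseudocount of 0.1 TPM, 117 with values quantile normalized, 118 scaled by median of ratios and 9 scaled by ERCC. With no filter beyond 1 value above 0 limma called 0, with 6363 of 111336 at an unadjusted p under 0.05. It was 258 (224 higher and 34 lower) and 227 (221 and 6) with 12 and 18 KO libraries in the fit, 1240 (1104 and 136) with 12 libraries of both genotypes, and 680 (658 and 22) with all 36, so the lower calls shrank more than the higher in the fits with 18 and 36. With no replicate block, which drops the pairing, limma called 0. Leaving out a culture gave 0 to 612. A random culture block and a table with identical transcripts counted once were chosen after seeing the data and gave 885 and 680. The interaction count of 1768 stayed within 1.5 times in 3 of 15 alternatives. It was 387 with a pseudocount of 0.1 TPM, 1103 and 670 with filters of 1 TPM in 3 libraries and 10 TPM in all, and 0 with no filter (limma, 12627 at an unadjusted p under 0.05). It was 7095 after ERCC scaling, which moved the median interaction to -2.63, against -0.28, and 0 with no replicate block (limma, 1203 at an unadjusted p under 0.05). Leaving out a culture gave 6 to 2828. Lower calls were 54.1% of interaction calls, and 34.6%, 97.4%, 45.2% and 46.0% with a pseudocount of 0.1 TPM, ERCC scaling, quantile normalization and median-of-ratios scaling. Leaving out cultures and changing filters also changes the number of libraries or transcripts, and the cause of these moves was not tested. The named transcripts kept their sign in all 18 alternatives each. They were chosen for the same sign in every culture, so only alternatives that rescaled the libraries could have turned it. The call was kept in 14, 14, 13 and 11 of the 18 for ENST00000490936.5, ENST00000461111.1, ENST00000569500.5 and ENST00000456958.7, with limma adjusted p up to 0.726. The mean gain of transcripts in Polysome2 was positive at 10 TPM and at 0.1 TPM, although culture 2 was lower at 0.1 TPM (exact sign permutation p = 0.75, two-sided), and the fall in the share of leading transcripts did so for the 100 most abundant. Sums over genes were not run, for want of gene names.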
